A study of Solanum lycopersicum with 36 samples.

Results

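The degradome sites compared between tomatoes at heat and at control are positions on tomato transcripts where uncapped 5′ ends were sequenced and a small RNA could be paired with the surrounding transcript. Members were taken by joining the site tables of all 4 treatments by small RNA and transcript and turning each library's deposited signal back into reads. Of the 574 sites, 456 had reads at heat or control. Sites with at least 10 reads over the 12 degradome libraries of the series were kept. This left 206 of 574 sites, on 188 of 531 transcripts, and a site not listed in a treatment was counted as 0 there. A site unlisted in a treatment cannot be told from a site without reads there. Each fold given below as at least a value therefore assumes no more than 3 reads in such a group. The heat group was 3 libraries from tomatoes kept at 38 °C with irrigation, and the control group was 3 libraries from irrigated tomatoes at 26 °C. All plants were wild type, cultivar ‘Jinlingmeiyu’, and the first fully expanded leaf was sampled. The plants were 24 days old when water was first withheld from those of the drought and combination groups. The temperature treatments began 3 days later. The labels give a treatment of 48 h, while the methods of the study state that leaves of an earlier sampling time were sequenced. The series also holds 3 combination and 3 drought degradome libraries, both from plants with water withheld for 3 days, at high and at control temperature. Libraries of 1 group are described as biological replicates without naming the plants, so p-values measure the spread between libraries. The limma test of sites takes the spread within each treatment over all 12 degradome libraries, not from heat and control alone.

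Plant microRNAs are short RNAs that are loaded into an ARGONAUTE protein and guide it to near-perfectly paired transcripts, which are cut opposite the middle of the small RNA. The downstream fragment carries a 5′ phosphate instead of a cap, and degradome sequencing ligates an adapter to that end. Many conserved plant microRNAs pair with transcripts of transcription factors of leaf development and hormone response, and several Solanaceae microRNAs pair with resistance genes of the NBS-LRR type. The number of reads at a site depends on how much of the transcript there is, how often it is cut and how long the fragment lasts, and these cannot be told apart here. In whole leaves, fewer cells of a type and less RNA per cell cannot be told apart either.

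The small RNAs that the study paired with the sites described below are shown first because the results turn on which small RNA a site belongs to. Each is a mature sequence read 5′ to 3′ from the deposited small RNA table with T for U, and the capitals mark bases 2 to 8, the seed. Names that start with PC are candidates with no named family.
stu-miR6025_1ss7CT, paired with the receptor-like kinase transcript At1g67520: tACCAATAattgagataacatc
sly-miR5300, paired with PXN: tCCCCAGTccaggcattccaac
sly-miR482b, paired with the resistance gene At4g27220: tCTTGCCTacaccgcccatgcc
sly-miR6027-3p_R-1, paired with the resistance gene R1B-16: tGAATCCTtcggctatccata
stu-miR6026-5p_1ss12TA, paired with VAMP722: aATACAACtatagccaagacaa
stu-miR408b-3p, paired with Solyc01g104400: tGCACTGCctcttccctggct
sly-miR172a, paired with RAP2-7: aGAATCTTgatgatgctgcat
sly-miR171d_R+1, paired with the first site of SCL6: tTGAGCCGcgccaatatcact
sly-miR171e, paired with the same site: tTGAGCCGcgtcaatatctct
sly-miR171a, paired with the second site of SCL6: tGATTGAGccgtgccaatatc
stu-miR393-5p, paired with TIR1: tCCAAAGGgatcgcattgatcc
ath-miR167a-5p_1ss21AT, paired with ARF8: tGAAGCTGccagcatgatctt
sly-miR160a, paired with ARF17: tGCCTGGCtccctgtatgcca
sly-miR403-3p, paired with AGO2: cTAGATTCacgcacaagctcg
PC-5p-166761_36, paired with HSP22.7: tCTTCAACctcgaccgtgatt
PC-3p-318117_10, paired with a carbonic anhydrase: tTAATTGAattaaattgta

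Listed reads came to 2678, 2382 and 3884 in the heat libraries, against 5690, 6595 and 5258 in the control libraries. The groups did not overlap, the ratio of their means was 0.51, and the two-sided exact permutation test gave p = 0.1, the smallest that 3 against 3 libraries allow. The study also gives fewer transcript-mapped degradome reads for heat than for control, and that fall is the larger one. Fewer listed reads at heat thus do not mean fewer per mapped read. Sites above 0 numbered 144, 137 and 214 at heat, against 183, 176 and 237 at control, and these ranges overlapped (exact permutation p = 0.3). Of the 206 tested sites, 139 had reads in both groups, 18 at heat but not at control, 42 at control but not at heat, and 7 in neither. The 10 sites with most reads held 59.2% of the heat reads and 48.6% of the control reads. Because the heat libraries held fewer listed reads, levels were compared after scaling by trimmed-mean factors, which ran from 0.487 to 1.10 at heat and from 1.31 to 1.48 at control. Searched annotations of leaf mesophyll were found at 3 of the 574 sites (carbonic anhydrases and a photosystem I subunit) and those of root, flower and phloem at 0, but the table lists sites paired with a small RNA and is no measure of expression.

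More sites were lower at heat than higher. In limma's test across all tested sites, with Benjamini-Hochberg adjustment at 0.05, 31 of 206 sites (15%) differed for heat vs control, 7 higher (3.4%) and 24 lower (11.7%). Each log2FC below is a difference of log2(scaled reads + 1) with its SE (n = 3 libraries each), while reads are given per library in the order of the replicate numbers and before scaling. The median log2FC over all tested sites was −0.47, and 125 sites were below 0 against 74 above. In 62 sites (30.1%) the 3 heat and 3 control libraries did not overlap, with heat above in 20 (9.71%) and below in 42 (20.4%). The split depends on the scaling. On the deposited scale 2 sites were higher and 34 lower, with the median of all sites shifted by −0.39. Scaling by transcript-mapped reads per treatment led to 20 higher and 10 lower, with a shift of 0.30. A direction given below is therefore relative to the listed sites as a whole. The second of these scalings ended 14 of the 24 lower calls (SCL6 on both copies, NSP2, TIR1, both ARF8 copies, ASP5, NPF2.1, PAF1, R1C-3, At3g53190, ACO, MKK9 and Solyc12g008730), and the deposited scale ended 5 of the 7 higher ones (ARF17, AGO2, CPN60-like 2, CCMFC and Solyc10g081570). The count was 20 without Heat 1, 16 without Heat 2, 18 without Heat 3, 15 without Control 1, 17 without Control 2 and 30 without Control 3. Fitted on the heat and control libraries alone, limma lost ACO, AGO2, NSP2, R1C-3, MKK9, CPN60-like 2, a carbonic anhydrase, Solyc10g081570 and Solyc12g008730. Among the 31 calls, 11 held without each library in turn and 6 held under all 21 alternatives tried: HSP22.7, Solyc01g104400, At4g27220, VAMP722, At1g67520 and the RAP2-7 site on Solyc10g084340.

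**Figure D1:**
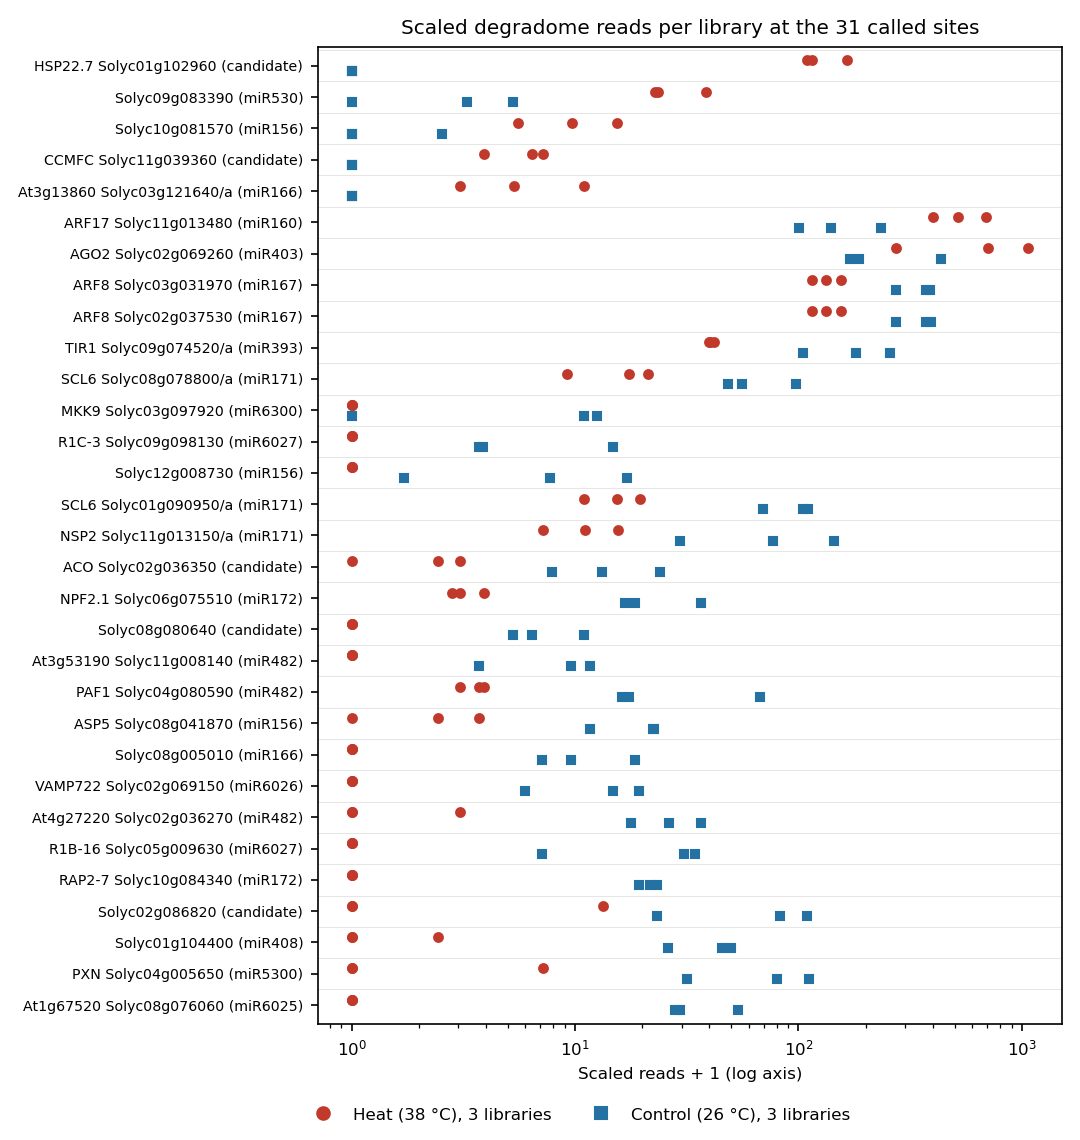
Scaled reads + 1 on a log axis at each of the 31 called sites, 1 row per site, with a point for each of the 3 heat and 3 control libraries. Heat and control points do not overlap in 29 of the 31 sites, the exceptions being AGO2 and MKK9.

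**Figure D2:**
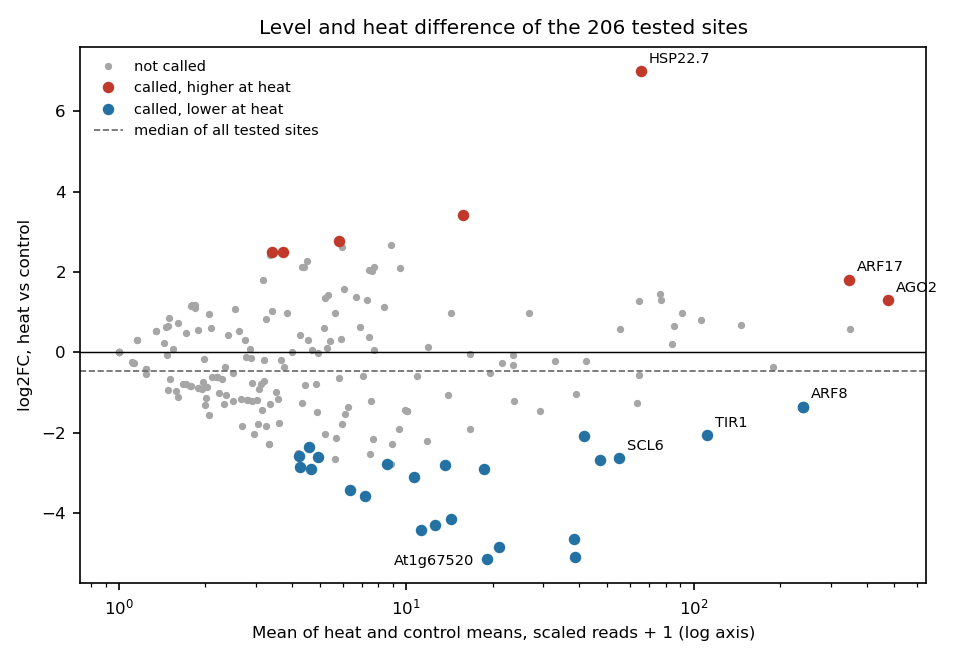
Each of the 206 tested sites, with the mean of the heat and control means of scaled reads + 1 on a log x axis and log2FC for heat vs control on the y axis. Called sites are in colour and the dashed line is the median of all sites, −0.47; ARF17 and AGO2 are the higher calls with most reads.

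The site with the largest rise was on HSP22.7 (Solyc01g102960), a class IV small heat shock protein, a family that holds unfolding proteins in a soluble state. It had 75, 80 and 125 reads in the heat libraries and 0, 0 and 0 in the control libraries. Every heat library was thus far above every control library, at least 172-fold higher over the group when control is set to the floor of 3 reads (log2FC 6.99 ± 0.98, adjusted p = 9.19e-06, limma). The small RNA paired with it, PC-5p-166761_36, was listed at 0 in all 6 heat and control small RNA libraries. It was listed above 0 in 3 combination libraries and 1 drought library, where the site itself had 25, 9 and 0 reads at combination and 0, 1 and 0 at drought. Of 9 listed sites annotated with the words heat shock, chaperone, DnaJ or HSP, only this one had enough reads to be tested.

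Among the other higher sites, a 40S ribosomal protein S15-4-like transcript (Solyc09g083390, paired with miR530) had 26, 11 and 24 reads at heat and 3, 0 and 6 at control (log2FC 3.41 ± 0.88, adjusted p = 0.00813, limma). Its libraries did not overlap, but the call was lost without Control 2 (log2FC 2.72, adjusted p = 0.0522, limma). CPN60-like 2 (At3g13860, Solyc03g121640, a mitochondrial chaperonin subunit in Arabidopsis, paired with miR166) had 3, 1 and 11 reads at heat and 0, 0 and 0 at control, at least 9.19-fold higher at heat. CCMFC (Solyc11g039360), which takes part in cytochrome c assembly in mitochondria and was chosen after its values were seen, had 2, 3 and 6 reads at heat and 0, 0 and 0 at control, at least 6.74-fold higher, with 8 reads in the remaining libraries, so it was tested only through the heat group. Solyc10g081570, which has no annotation here, had 6, 7 and 5 reads at heat and 2, 0 and 0 at control. These rest on few reads: the calls of CPN60-like 2 and Solyc10g081570 were lost without any 1 of the 6 libraries (log2FC from 2.01 to 2.94 and from 2.43 to 3.23), and that of CCMFC without Heat 1, Heat 2, Heat 3 or Control 1 (log2FC from 2.33 to 2.77).

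Sites paired with the small RNA families of resistance genes were lower at heat or not called. Of 20 tested sites in this group (miR482, miR5300, miR6024, miR6026 and miR6027), 7 were lower and 0 higher, with a median log2FC of −1.18, against 11.7% lower and a median of −0.47 over all tested sites. The number lower was 4 to 7 under other scalings, and 4 without each library in turn except Control 3 (5). Only At4g27220, R1B-16 and R1C-3 of the 7 are resistance genes by annotation. At4g27220 (Solyc02g036270), an NBS-LRR protein that recognises pathogens, had 0, 1 and 0 reads at heat and 33, 25 and 50 at control (log2FC −4.15 ± 0.85, adjusted p = 0.000926, limma). R1B-16 (Solyc05g009630), a late blight resistance homologue, had 0, 0 and 0 reads at heat and 39, 9 and 47 at control, at least 17.2-fold lower at heat. Both were nearly or fully without listed reads in every heat library. R1C-3 (Solyc09g098130), of the same family and chosen after its values were seen, had 0, 0 and 0 reads at heat and 18, 4 and 4 at control, and its call was lost without Heat 1, Heat 2, Heat 3 or Control 1 (log2FC from −2.57 to −1.92).

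The other 4 of the 7 encode proteins of other kinds. PXN (Solyc04g005650), a carrier that moves NAD across the peroxisomal membrane in Arabidopsis, had 0, 3 and 0 reads at heat and 40, 117 and 155 at control (log2FC −5.09 ± 1.02, adjusted p = 0.000926, limma), and was not called without Control 2 (log2FC −4.95, adjusted p = 0.0528, limma). VAMP722 (Solyc02g069150), a vesicle fusion protein, had 0, 0 and 0 reads at heat and 18, 27 and 7 at control, at least 9.43-fold lower. PAF1 (Solyc04g080590), an alpha subunit of the proteasome paired with miR482e, had 2, 1 and 3 reads at heat and 20, 98 and 23 at control. A pectate lyase-like transcript (At3g53190, Solyc11g008140), an enzyme family that cuts cell wall pectin, had 0, 0 and 0 reads at heat and 14, 4 and 12 at control and was chosen after its values were seen. No library of heat overlapped control in any of the 4. The calls of PAF1 (log2FC from −3.27 to −2.25) and At3g53190 (from −3.40 to −2.57) were lost without any 1 of the 6 libraries.

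Of 7 tested sites paired with the receptor-like protein families miR6022, miR6023 and miR6025, 1 was lower and 0 higher, a share near the 11.7% lower over all tested sites, with a median of −2.28 (−1.81 with sites at 0 set to their bound) against −0.47. On the deposited scale, and without Control 3, 4 were lower. The lower one in the chosen fit was At1g67520 (Solyc08g076060), a lectin receptor-like kinase of the cell surface, with 0, 0 and 0 reads at heat and 69, 42 and 38 at control. With heat set to the floor of 3 reads, it was at least 27.0-fold lower in heat leaves (log2FC −5.15 ± 0.86 with heat counted as 0, adjusted p = 0.000111, limma). RLP30 (Solyc01g006550), a receptor-like protein of immunity in Arabidopsis, had 1, 0 and 1 reads at heat and 40, 17 and 4 at control and did not pass the test (log2FC −2.78, adjusted p = 0.0517, limma). The RLP12 transcripts Solyc01g005720 and Solyc01g005760 share their reads and count as 1 signal.

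**Figure D3:**
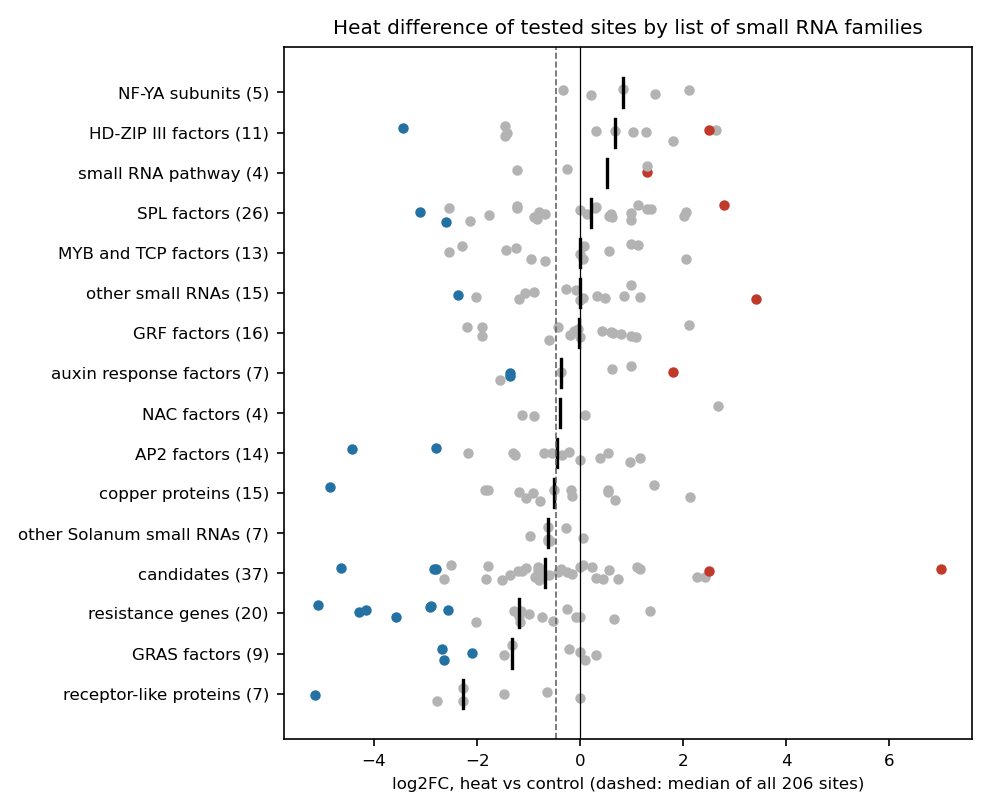
Log2FC for heat vs control of each tested site, in groups by the small RNA family assigned to it, with called sites in colour and the group median as a bar. Resistance and receptor-like sites have medians of −1.18 and −2.28, NF-YA and HD-ZIP III sites medians of 0.83 and 0.67.

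Sites of miR171 on GRAS factors changed unevenly. SCL6, a GRAS transcription factor that acts in shoot branching and chlorophyll formation in Arabidopsis, has 2 gene copies here, each with more than 1 listed site. On Solyc01g090950, the first site had 10, 9 and 11 reads at heat and 143, 153 and 96 at control. Every heat library was below every control library (log2FC −2.64 ± 0.61, adjusted p = 0.00331, limma). The second site of the same transcript had 21, 15 and 28 reads at heat and 40, 70 and 37 at control (log2FC −0.22 ± 0.75, adjusted p = 0.877, limma). Within each library, reads at the first site over those at the second came to 0.476, 0.6 and 0.393 at heat and 3.58, 2.19 and 2.59 at control, so the first site was the smaller one in every heat library and the larger one in every control library. These ratios were chosen after the values were seen, need no scaling between libraries, and are given without a test. The table pairs the first site with miR171d and miR171e and the second with miR171a. The printed miR171d starts 3 bases after the start of miR171a, with 17 of 18 overlapping bases the same, and miR171e likewise with 16 of 18. The table gives no cleavage position, so the distance between the sites on the transcript was not measured.

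The other SCL6 copy, Solyc08g078800, had 14, 8 and 9 reads at its first site at heat and 62, 143 and 77 at control (log2FC −2.09 ± 0.71, adjusted p = 0.0431, limma; chosen after its values were seen). Its second site had 14, 6 and 11 reads at heat and 67, 77 and 32 at control. The ratio of the first to the second was 1.0, 1.33 and 0.818 at heat and 0.925, 1.86 and 2.41 at control, which overlapped. NSP2 (Solyc11g013150), a GRAS factor of nodulation signalling in legumes, had 7, 3 and 16 reads at heat and 99, 42 and 201 at control at its first site (log2FC −2.68 ± 0.72, adjusted p = 0.00996, limma). In all, 3 of 9 tested GRAS sites were lower and 0 higher, with a median of −1.32 (−0.54 with sites at 0 set to their bound), against 11.7% lower and a median of −0.47 over all tested sites. Scaling by transcript-mapped reads called 0 of the 9, and 1 or 2 were called without each library in turn (1 without Heat 2, Control 1 or Control 3). The SCL6 call on Solyc08g078800 was lost without any 1 of the 6 libraries (log2FC from −2.34 to −1.74), and that of NSP2 without Heat 2, Control 1 or Control 3 (log2FC −2.39, −2.60 and −2.14).

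In auxin signalling, the sites moved in both directions. TIR1 (Solyc09g074520), the F-box receptor that binds auxin and is paired with miR393, had 27, 19 and 45 reads at heat and 336, 153 and 253 at control (log2FC −2.06 ± 0.49, adjusted p = 0.00348, limma). ARF8, an auxin response factor that activates transcription and is paired with miR167, had 91, 75.5 and 125 reads at heat and 486.5, 578 and 382 at control on Solyc02g037530 (log2FC −1.36 ± 0.38, adjusted p = 0.0112, limma). The values of Solyc03g031970 were nearly the same because both copies share reads, and they count as 1 signal. ARF17 (Solyc11g013480), a repressing auxin response factor paired with miR160, had 356, 335 and 441 reads at heat and 182, 148 and 326 at control (log2FC 1.81 ± 0.49, adjusted p = 0.0108, limma). Within a library, ARF17 reads over those of ARF8 on Solyc03g031970 came to 3.91, 4.44 and 3.53 at heat and 0.375, 0.257 and 0.853 at control. ARF17 thus held the larger count in every heat library and ARF8 in every control library. Reads of the other ARF8 copy were not added, so the size of the ratio depends on how shared reads were counted. This ratio too was chosen after the values were seen.

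The call of ARF17 was lost on the deposited scale and without Heat 2, Control 1 or Control 2 (log2FC 1.61, 1.77 and 1.53), and that of ARF8 without Heat 3, Control 1 or Control 2 (log2FC −1.25, −1.30 and −1.26). TIR1 held without each library. Of 7 tested sites paired with miR160 or miR167, 1 was higher and 2 lower, these being the ARF8 copies that count as 1 signal, and of 2 paired with miR393, 1 was lower. Over all tested sites 3.4% were higher and 11.7% lower.

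**Figure D4:**
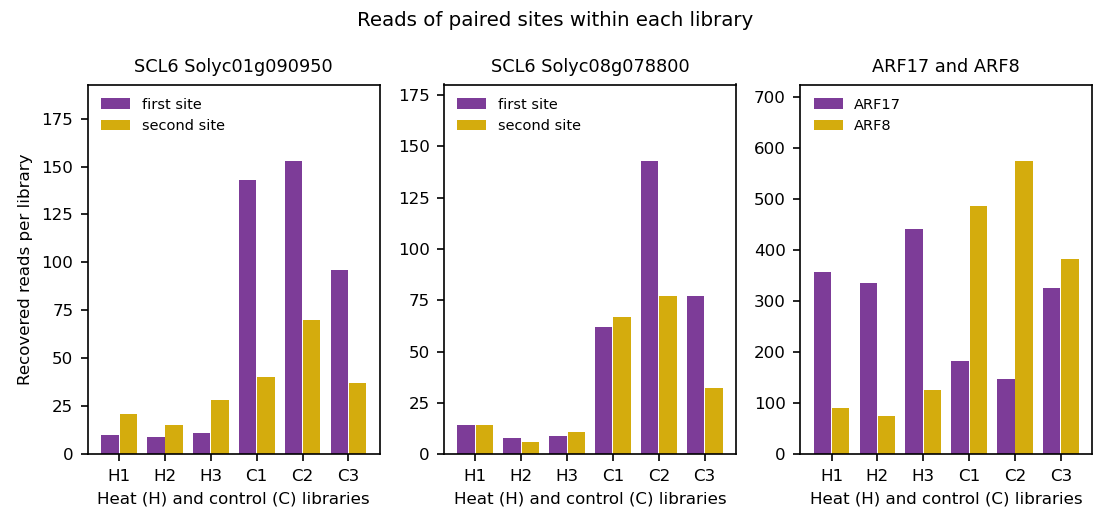
Reads per library before scaling (bars) for both sites of each SCL6 copy, for ARF17 and for ARF8 on Solyc03g031970, with the 3 heat libraries (H) left of the 3 control libraries (C). At the first SCL6 site on Solyc01g090950 the heat libraries hold 9 to 11 reads and the control libraries 96 to 153.

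Of 14 tested sites paired with miR172, whose known targets are AP2 factors that delay flowering, 2 were lower and 0 higher, a share near the 11.7% lower over all tested sites. RAP2-7 on Solyc10g084340 had 0, 0 and 0 reads at heat and 24, 33 and 29 at control, at least 15.6-fold lower (log2FC −4.42 ± 0.92, adjusted p = 0.000926, limma). NPF2.1 (Solyc06g075510), of a family of nitrate and peptide transporters and chosen after its values were seen, had 2, 1 and 2 reads at heat and 23, 53 and 22 at control, and was not called without Heat 2, Heat 3 or Control 2 (log2FC −2.77, −2.71 and −2.45). Other RAP2-7 copies did not pass: Solyc11g072600 had 21, 9 and 29 reads at heat and 219, 181 and 14 at control (log2FC −1.26), and Solyc04g049800 had 19, 26 and 75 reads at heat and 125, 49 and 143 at control (log2FC −0.56). In both, 1 control library lay within the range of the heat libraries before scaling.

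Among 15 tested sites of the copper families miR397, miR398 and miR408, 1 was lower and 0 higher, against 11.7% lower over all tested sites. It was Solyc01g104400, without annotation here and paired with miR408, with 1, 0 and 0 reads at heat and 64, 37 and 62 at control (log2FC −4.85 ± 0.91, adjusted p = 0.000495, limma). SODCC.5, a copper/zinc superoxide dismutase that removes superoxide, had 62, 51 and 125 reads at heat and 68, 141 and 74 at control at its first site, with overlap and no call (log2FC 0.67, adjusted p = 0.414, limma). Its second site had 4, 3 and 7 reads at heat and 2, 1 and 0 at control (log2FC 2.13, adjusted p = 0.0897, limma).

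Of 37 tested sites paired with candidate small RNAs, 2 were higher and 3 lower, a share near the 15% called over all tested sites. The largest fall was at a carbonic anhydrase (Solyc02g086820), the enzyme that interconverts CO2 and bicarbonate in leaves, with 0, 6 and 0 reads at heat and 142, 33 and 114 at control (log2FC −4.65 ± 0.94, adjusted p = 0.000926, limma). Its candidate, PC-3p-318117_10, was listed at 0 in the heat and control small RNA libraries. The site was not called in DESeq2 or in a limma fit of the heat and control libraries alone. Solyc08g080640, without a gene symbol here, had 0, 0 and 0 reads at heat and 13, 8 and 6 at control, at least 4.90-fold lower, and 0 reads in all other libraries, so it was tested only through the control group. ACO (Solyc02g036350), an ACC oxidase, the enzyme of the last step of ethylene synthesis, had 1, 1 and 0 reads at heat and 9, 34 and 17 at control, and its call was lost without any 1 of the 6 libraries (log2FC from −3.18 to −2.31). Solyc08g080640 and ACO were chosen after their values were seen.

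The remaining lower sites were paired with reads from other parts of miRNA hairpins or with less usual families. ASP5 (Solyc08g041870), an aspartate aminotransferase of amino acid metabolism, had 1, 0 and 3 reads at heat and 14, 32 and 30 at control (log2FC −3.12 ± 0.83, adjusted p = 0.0097, limma), and was not called without Heat 2 (log2FC −2.58, adjusted p = 0.0733, limma). A cysteine--tRNA ligase (Solyc08g005010), which charges tRNA with cysteine, had 0, 0 and 0 reads at heat and 23, 9 and 12 at control, at least 7.98-fold lower, and was not called without Control 1 or Control 2 (log2FC −3.04 and −3.74). MKK9 (Solyc03g097920), a kinase of stress signalling, had 0, 0 and 0 reads at heat and 13, 17 and 0 at control, so the groups overlapped at 0. It had 0 reads in all other libraries and was tested only through the control group. Solyc12g008730 had 0, 0 and 0 reads at heat and 21, 10 and 1 at control. The last 2 were chosen after their values were seen, and both calls were lost without any 1 library other than Control 3 (log2FC from −2.37 to −1.73 and from −2.61 to −1.87).

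Families of leaf development outside these groups held few or no calls, though more under another scaling. Over all tested sites 15% were called, 3.4% higher and 11.7% lower, a share at which small lists can hold 0 calls. SPL factors time the change from juvenile to adult growth. Of 10 sites on 6 transcripts named SPL by symbol or annotation, 0 were called. The 3 calls among the 26 sites of miR156 and miR157 fell on transcripts not so named. The 10 were picked after the data were seen, and an SPL factor under another symbol would not be among them. After scaling, 3 of the 26 sites had every heat library above every control library and 4 the reverse. Of 16 sites of miR396, paired with growth-regulating factors, 0 were called, with a median of −0.02. GRF4 (Solyc12g096070) had 84, 74 and 138 reads at heat and 86, 154 and 89 at control. After scaling, its heat libraries all lay above its control libraries, as in 2 of the 16 sites, against 2 with heat below. The other GRF4 site with heat above, on Solyc08g005430, had 106, 150 and 103 scaled reads at heat against 62.7, 73.7 and 45.0 at control. Of 11 tested sites of miR166, 1 was higher and 1 lower, both on transcripts that are not named as HD-ZIP III factors. Of the 7 sites on HD-ZIP III factors, which set the upper side of the leaf, 0 were called. These 7 were picked by symbol or annotation after the data were seen. The 3 ATHB-15 transcripts among them have the same or nearly the same reads and count as 1 signal. After scaling, 3 of the 7 sites had every heat library above every control library and 0 the reverse. ATHB-14 (Solyc02g069830) had 135, 92 and 165 reads at heat and 191, 134 and 143 at control (log2FC 0.67, adjusted p = 0.302, limma), and REV had 53, 61 and 74 reads at heat and 34, 44 and 79 at control (log2FC 1.27, adjusted p = 0.198, limma). Scaled reads of ATHB-14 were 195, 189 and 150 at heat against 146, 90.6 and 102 at control. Those of REV were 76.7, 125 and 67.2 against 26.0, 29.7 and 56.5. Of 5 sites of miR169, on NF-YA subunits of a CCAAT-box factor, 0 were called, with a median of 0.83. Among 13 sites of miR159 and miR319, 0 were called. The deepest of them, Solyc12g014120, which is not annotated as a MYB or TCP factor, had 303, 228 and 376 reads at heat and 338, 495 and 347 at control (log2FC 0.57, adjusted p = 0.276, limma). After scaling, its heat libraries all lay above its control libraries, as in 1 of the 13 sites, against 2 with heat below. Scaled by transcript-mapped reads, 4 of the 11 sites of miR166 were higher and 1 lower, and 3 sites of miR396, 2 of miR156 and miR157, 1 of miR169 and 1 of miR159 and miR319 were higher. Without Control 3, 3 sites of miR156 and miR157 and 3 of miR159 and miR319 were lower. A count of 0 in these families rests on the limma test at this depth and does not show that the sites are alike. At an unadjusted p under 0.05, 62 of the 206 sites passed.

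Other sites with no call were spread over both directions. NFYA9 (Solyc01g087240), an NF-YA subunit, had 58, 71 and 106 reads at heat and 77, 27 and 71 at control (log2FC 1.45, adjusted p = 0.116, limma), and NFYA8 had 56, 50 and 84 reads at heat and 66, 172 and 98 at control (log2FC 0.21). NAC100, a NAC factor paired with miR164, had 12, 3 and 20 reads at heat and 0, 7 and 1 at control (log2FC 2.67, adjusted p = 0.0636, limma). UBC24, which degrades phosphate transporters in Arabidopsis and is paired with miR399, had 4, 4 and 9 reads at heat and 8, 3 and 0 at control (log2FC 1.58). In these 4 the heat and control reads overlapped before scaling, and after scaling they still did in NFYA8 and UBC24 but not in NFYA9 and NAC100. SPL14 (Solyc10g078700) had 4, 6 and 23 reads at heat and 63, 19 and 50 at control (log2FC −1.22), and GRF8 (Solyc08g083230) had 4, 0 and 7 reads at heat and 15, 22 and 17 at control (log2FC −1.90, adjusted p = 0.138, limma). CLPT1 (Solyc03g007110), a subunit of the chloroplast Clp protease, had 0, 1 and 2 reads at heat and 12, 13 and 9 at control (log2FC −2.14, adjusted p = 0.138, limma), with every heat library below every control library but no call. PAA1 (Solyc12g009140), annotated as an alpha subunit of the proteasome and paired with a candidate small RNA, had 17, 14 and 11 reads at heat and 84, 132 and 16 at control (log2FC −1.04).

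Proteins of the small RNA pathway are themselves targets. AGO2 (Solyc02g069260), an ARGONAUTE of antiviral defence paired with miR403, had the most reads at heat, 487, 520 and 301, against 222, 640 and 261 at control. The groups overlapped before and after scaling, and the scaled log2FC was 1.30 ± 0.42 (adjusted p = 0.0352, limma). The call was lost without Heat 1, Heat 2, Control 1, Control 2 or Control 3 (log2FC 1.17, 0.87, 1.05, 1.73 and 1.12). AGO1 (Solyc06g072300), the main ARGONAUTE of microRNAs, had 50, 36 and 208 reads at heat and 56, 56 and 56 at control. After scaling, AGO1 ran from 72.4 to 189 at heat and from 37.9 to 42.8 at control. Every heat library was thus above every control library after scaling, with Heat 3 far above the rest. The AGO1 site was not called (log2FC 1.30, adjusted p = 0.108, limma). DCL1, the enzyme that cuts microRNA precursors, had 7, 13 and 17 reads at heat and 59, 16 and 21 at control (log2FC −0.26). Of the 4 tested sites of this group, 1 was higher and 0 lower, against 3.4% higher and 11.7% lower over all tested sites. The 1 call was AGO2, which was also lost in a fit of the heat and control libraries alone.

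The small RNAs paired with the sites were measured in separate libraries, 3 of heat and 3 of control. With the most abundant small RNA assigned to each site, 24 lower sites had 2 small RNAs higher, 1 lower, 17 not called and 4 not tested at heat. The 7 higher sites had 5 not called and 2 not tested. Over all small RNAs tested, 63 of 419 differed (15%), 10 higher (2.39%) and 53 lower (12.6%). miR171d_R+1, paired with the first SCL6 site, averaged 371 at heat and 98.1 at control in the deposited normalised signal (log2FC 1.96, adjusted p = 0.000585, limma). miR171a, paired with the second SCL6 site, averaged 10907 at heat and 5377 at control (log2FC 1.01, adjusted p = 0.0023, limma), and miR171e averaged 924 and 847 (log2FC −0.05). miR393 averaged 1958 at heat and 1084 at control (log2FC 0.86, adjusted p = 0.0401, limma), and reads at its TIR1 site were lower at heat. miR408b-3p averaged 26662 at heat and 73114 at control (log2FC −1.63, adjusted p = 0.0251, limma), and reads at its Solyc01g104400 site were lower too. miR482b and miR5300 did not pass the test, with means of 21633 and 19109 at heat against 26117 and 19068 at control.

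The rule that chose the sites did not use the length of the small RNA. Of 23 tested sites whose most abundant small RNA is 22 nt long, 7 were lower (30.4%) and 0 higher, with a median log2FC of −1.0. Of 147 sites with 21 nt, 13 were lower (8.84%) and 7 higher, with a median of −0.51. At 20 nt 2 of 20 were lower (10%), and at 19 nt 2 of 6 (33.3%), a larger share than at 22 nt but of few sites. The 7 lower sites of 22 nt were At4g27220, VAMP722, PXN, PAF1, At1g67520, TIR1 and At3g53190, so most belong to the resistance and receptor-like groups above. These shares were looked at after the calls were known and are a description.

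Combination and drought differ by temperature as heat and control do, in 6 other libraries from plants without water. Both comparisons come from 1 limma fit and share each site's estimate of the spread, so their calls are not from independent tests. For combination vs drought 27 of 206 sites (13.1%) were called, 15 higher (7.28%) and 12 lower (5.83%), whereas on the deposited scale 2 were higher and 43 lower. Of the 27, 11 were also called for heat vs control, all with the same sign, which is 35.5% of the heat vs control calls and 40.7% of the combination vs drought calls. They were 7 lower sites (both first SCL6 sites, At4g27220, the carbonic anhydrase, PAF1, R1B-16 and At1g67520) and 4 higher ones (HSP22.7, CPN60-like 2, ARF17 and CCMFC). For At4g27220 the log2FC was −4.15 for heat vs control and −4.25 for combination vs drought. For HSP22.7 it was 6.99 and 2.87. All 7 sites higher at heat had a log2FC above 0 in the second comparison, and of the 24 lower ones 18 were below 0, 4 above and 2 at 0. The ARF17 to ARF8 ratio, again with the reads of Solyc03g031970 alone for ARF8, was 1.83, 1.80 and 1.61 at combination and 0.642, 0.126 and 0.30 at drought. The SCL6 ratio on Solyc01g090950 was 2.33, 1.71 and 0.231 at combination and 10.3, 2.11 and 1.22 at drought, which overlapped. A test of the difference between both comparisons called 5 of 206 sites (2.43%), with 4 where combination vs drought was above heat vs control (1.94%) and 1 where it was below (0.485%).

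**Figure D5:**
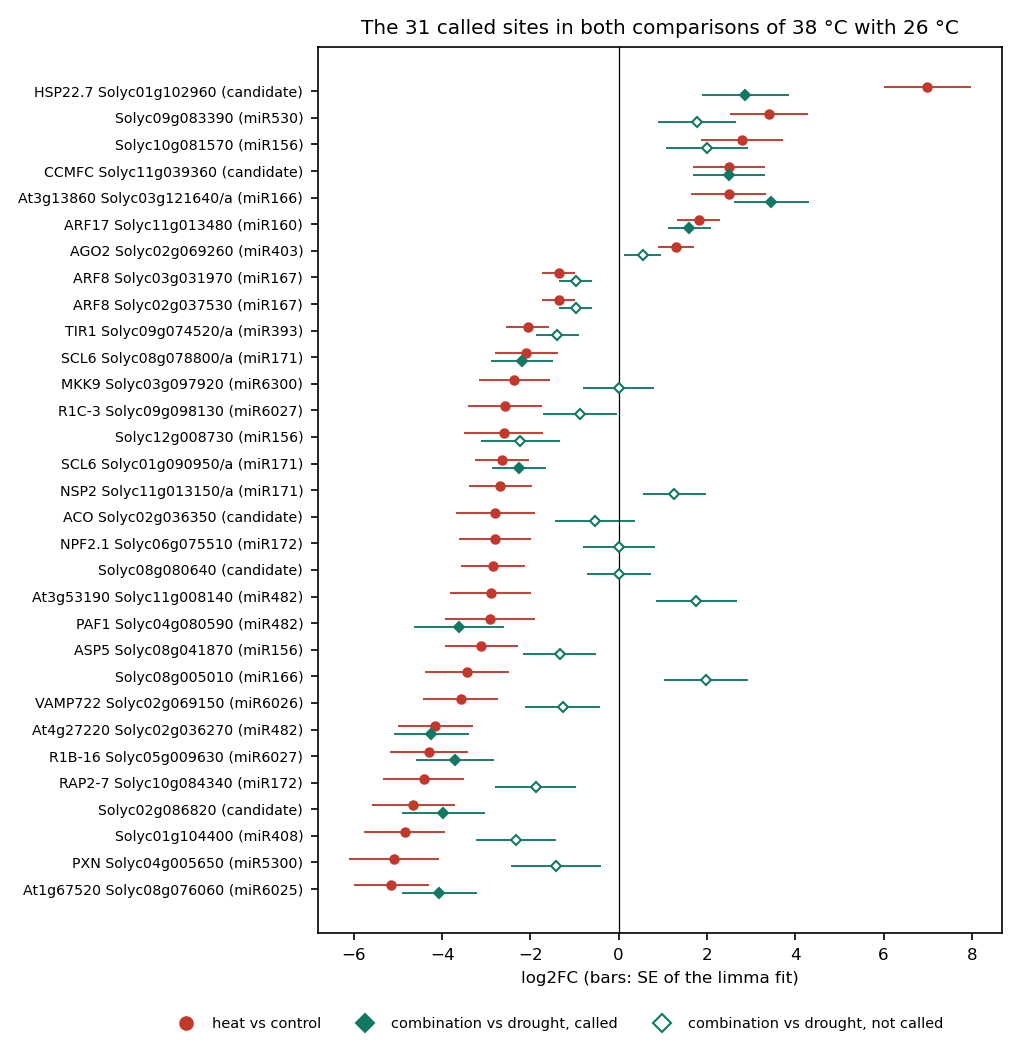
Log2FC with SE bars of the 31 called sites, 1 row per site, for heat vs control (circles) and for combination vs drought (diamonds, filled where called). The 11 filled diamonds lie on the same side of 0 as their circles.

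The minimum of 10 reads sets which sites entered. Just inside it lay 18 sites with 10 to 11 reads over the 12 libraries, of which 5 had reads at heat and 10 at control. Just outside lay 29 sites with 8 to 9 reads, of which 15 had reads at heat and 18 at control. For 42 of the 206 sites the reads outside the higher of the heat and control groups were under the minimum, so that these sites were tested only through the group where they were high. Among them were 3 calls, MKK9, Solyc08g080640 and CCMFC. A list of heat targets was also read, which had been chosen on these same samples and is not independent evidence of a direction. Of its 23 sites 21 were tested, with 3 higher, 8 lower and a median log2FC of −1.36, against 3.4% higher, 11.7% lower and a median of −0.47 over all tested sites.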

How the data were processed

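Libraries of uncapped 5′ ends from tomato leaves were compared between 3 heat and 3 control replicates. The authors matched the reads to ITAG transcripts, assigned sites with CleaveLand and predicted targets with Targetfinder, and deposited a normalised signal per site and per small RNA, by a formula not given in the sources used here. The table lists pairs of a small RNA and a transcript, without cleavage positions. Pairs on a transcript with the same values were joined into 1 site. Each library's degradome signal was divided by its smallest common step, worth 35.6 to 54.7 units, which gave whole reads for 91.2% to 94.9% of the values above 0 (tolerance 0.001). The others were parts of a read, and were kept.

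Reads were scaled by trimmed-mean factors, log2(reads + 1) was fitted over all 12 degradome libraries with limma 3.58.1 in R 4.3.3 (trend in the variance, Benjamini-Hochberg adjustment over all 206 tested sites), and other steps used Python 3.11.15, pandas 2.3.3, scipy 1.17.1 and matplotlib 3.10.9. The small RNA table was fitted likewise on log2(signal + 1), without further scaling, keeping sequences with at least 10 units in at least 3 libraries. edgeR 4.0.16 and DESeq2 1.42.0 were run as alternatives on rounded reads of the heat and control libraries alone. Other alternatives were 4 scalings, minimum reads of 1 and 30, pseudocounts of 0.5 and 3, voom, a replicate block and leaving out each library. Bounds set a group without listed reads to 3 reads in all, and hold only if an unlisted site had no more than that. Scripts were tested on simulated data with 1 spread for all sites. There the limma test called 8.5% of planted 4-fold changes and 44.8% of the larger planted ones, and 6.58% of its calls were false.

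Named sites were up to 10 higher and up to 10 lower calls by log2FC without overlap and with a mean of at least 5 scaled reads in the higher group, the deepest site of each family list and, in lists of 5 or more tested sites, the second deepest, and the transcripts of a target list given by the study. The members and lists were chosen with earlier results of these data known. Gene symbols are those of the deposited table, whose description column at times names another gene (AGO1, SCL6 and ARF8 among them). Circular RNA values were not used here, and the names of the reference annotation at hand could not be matched to the transcripts.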

Additional observations from a re-analysis of the deposited data

Results flagged for a closer look

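At 5 sites the difference for combination vs drought departed from that for heat vs control in a test of the interaction (limma, adjusted over all tested sites). Each value here is the log2FC for combination vs drought minus that for heat vs control, so a positive value means a higher log2FC in plants without water. NFYA9 (Solyc01g087240), an NF-YA subunit paired with miR169, gave −3.76 (adjusted p = 0.0315), with 11, 12 and 4 reads at combination and 223, 53 and 236 at drought, against 58, 71 and 106 at heat and 77, 27 and 71 at control. The cysteine--tRNA ligase site (Solyc08g005010) gave 5.41 (adjusted p = 0.0315), with 3, 11 and 11 reads at combination and 25, 0 and 4 at drought. PAA2 (Solyc08g061610), a copper transporting ATPase of the chloroplast in Arabidopsis paired with miR408, gave 4.49 (adjusted p = 0.0422), with 5, 5 and 3 reads at combination and 0, 0 and 3 at drought, against 1, 0 and 0 at heat and 3, 6 and 8 at control. At3g53190 gave 4.66 (adjusted p = 0.0429), with 2, 9 and 0 reads at combination and 1, 0 and 0 at drought. The first NSP2 site gave 3.94 (adjusted p = 0.0327), with 38, 93 and 28 reads at combination and 231, 50 and 21 at drought. On the deposited scale 1 site was called in place of 5. Groups of 3 are too small for the check of single outlying libraries.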

How the results depend on the processing

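Listed reads limit these results: many calls rest on fewer than 30 reads a library, and the formula of the deposited scaling is not given. Of 1193 values of the 57 named or called sites under alternatives, 956 kept direction and side of the threshold, 174 lost the call, 33 gained it and 30 changed sign. No value that changed sign passed the test in either fit, and the cause was not tested. The count for heat vs control was 15 to 30 with a library left out, 21 with at least 1 read, 32 with at least 30, and 24 to 36 under other scalings, tests and pseudocounts except the unadjusted test of deposited values (40). The split was 11 higher and 18 lower with voom, 9 and 17 with DESeq2, and 5 and 21 with edgeR. On the deposited scale combination vs drought gave 45 and the interaction 1. The replicate numbers did not pair the libraries: deviations of same-numbered heat and control libraries correlated at −0.0451, −0.164 and 0.0733, and a replicate block gave 33 calls, 30 of them among the 31, with 27 for combination vs drought, 7 for the interaction and 60 for small RNAs. Small RNA counts lay between 53 and 69.

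Signs changed as follows, in log2FC. On the deposited scale the first SODCC.5 site was −0.13, the third SCL6 site on Solyc01g090950 −0.29, ATHB-14 −0.12, NFYA8 −0.59, Solyc11g007360 −0.47 and Solyc12g014120 −0.23. With the unadjusted test of deposited values they were −0.10, −0.64, −0.13, −0.64, −1.11 and −0.22 in the same order. Scaled by transcript-mapped reads, the second SCL6 site on Solyc01g090950 was 0.62, SR45A 0.13 and RAP2-7 on Solyc04g049800 0.30. The third SCL6 site was −0.022 with total scaling and −0.074 with DESeq2, SR45A was 0.088 with voom, and Solyc11g007360 was −0.11 with pseudocount 3, −0.62 with edgeR and −0.25 with DESeq2. With a library left out, the second SCL6 site ran from −0.39 to 0.016, the third SCL6 site from −0.86 to 0.95, SR45A from −2.01 to 0.56, NFYA8 from −0.0696 to 0.52 and Solyc11g007360 from −0.89 to 0.80.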
